A study of Mus musculus with 20 samples.

Results

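The Serpina3 gene cluster was followed through the hippocampus of miR-34a wild type (WT) and knockout (KO) mice with and without the Tg-SwDI transgene. Its 7 members here were Serpina3n, Serpina3i, Serpina3m, Serpina3g, Serpina3f, Serpina3h and Serpina3c, out of 39056 genes in the count table. The cluster was chosen by measured values: Serpina3i has 1 of the highest fold changes between Tg-SwDI mice of the KO and WT genotypes. That difference is therefore a description, given without a test for any member. RNA came from the left hippocampus of 20 female C57BL/6 mice of 12 to 13 months, 5 per group, with 1 library per mouse. The 4 groups cross the miR-34a genotype (miR34a+/+ or miR34a-/-) with the transgene (Non-Tg or TgSwDI), and are called WT or KO and Non-Tg or Tg-SwDI. Tg-SwDI mice carry human amyloid precursor protein with the Swedish, Dutch and Iowa mutations under the neuronal Thy1 promoter. The KO is constitutive and affects every cell type, and no group was treated.

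Serpins are protease inhibitors that present a flexible loop as bait, are cut by the protease and then trap it in an inactive complex. Human SERPINA3 encodes alpha-1-antichymotrypsin, an acute phase protein made by liver and by reactive astrocytes that is found in amyloid plaques. In the mouse the corresponding locus has expanded by duplication into a row of closely related genes. Serpina3n, the member best known in the brain, is a marker of reactive astrocytes and of oligodendrocytes in disease, and its protein inhibits cathepsin G and granzyme B. Serpina3g, also called Spi2A, is known from activated lymphocytes and macrophages and inhibits cathepsins.

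All 7 members lie on chromosome 12 (mm10, GENCODE M21). Serpina3c (ENSMUSG00000066361.3, chr12:104146382-104153870) is on the minus strand and the others are on the plus strand. Next come Serpina3f (ENSMUSG00000066363.12, chr12:104214544-104221129), Serpina3g (ENSMUSG00000041481.16, chr12:104236245-104241939), Serpina3h (ENSMUSG00000041449.16, chr12:104247905-104253669) and Serpina3i (ENSMUSG00000079014.4, chr12:104263122-104269372). Serpina3m (ENSMUSG00000079012.11, chr12:104338486-104394257) and Serpina3n (ENSMUSG00000021091.8, chr12:104406729-104414329) close the row. Serpina3h is annotated as a transcribed unprocessed pseudogene and the other 6 as protein coding.

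Shared sequence bears on how the reads of such genes can be counted. Over aligned coding bases (for Serpina3h, the matching transcript), identity to Serpina3n lay between 83.6% and 86.0%. Serpina3i was closest to Serpina3f, at 92.0% identity, and to Serpina3h, at 90.5%. Among all stretches of 100 bases in the exons of Serpina3n, 0.2% occurred without a mismatch in another gene, and the share was 2.2% for Serpina3i, 3.5% for Serpina3g, 3.4% for Serpina3f, 3.6% for Serpina3h, 6.1% for Serpina3m and 0.0% for Serpina3c. With stretches of 50 bases the shares rose to between 4.3% for Serpina3c and 21.9% for Serpina3h, with 6.9% for Serpina3n and 15.9% for Serpina3i. The gene with which Serpina3i shared the highest number of its 50-base stretches was Serpina3h, at 9.8%. Reads from these stretches could be dropped or assigned to a neighbour, and counts of the low members are uncertain to that extent.

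**Figure D1:**
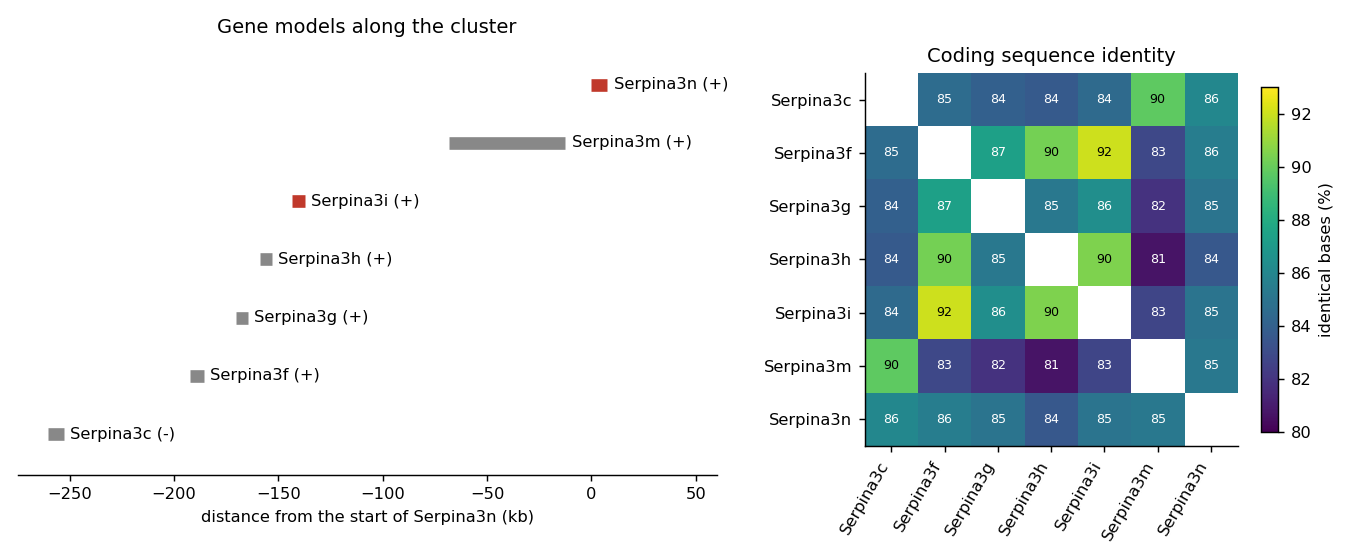
Left, position of the 7 gene models, in kb from the start of Serpina3n, with the strand in brackets and Serpina3n and Serpina3i in red; right, percent of identical bases between each pair of coding sequences. Serpina3i and Serpina3f form the most alike pair, at 92.0%.

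The members can be told apart where their exons differ most. Of the 30-base coding windows that align without a gap in all 7 genes, the following one had the lowest mean identity to Serpina3n, 63.3%, with 10 to 12 differences per member. It covers coding bases 691 to 720 of Serpina3n in exon 3 of 5, and lies in an exon of every other member. The windows are shown because a read across them separates Serpina3n from its neighbours. They are mm10 sequences in the direction of transcription, and capitals mark bases that differ from Serpina3n.
Serpina3n, chr12:104411180-104411209 (+): gcgggcaagaggaggcccgtgatagtgccc
Serpina3i, chr12:104266498-104266527 (+): TTggATGagaAgaggTcTgtgaAGgtgccA
Serpina3m, chr12:104391509-104391538 (+): TTggATGagaAgagATcTgtgaAGgtTccc
Serpina3g, chr12:104239088-104239117 (+): TTggATGagaAgaggTcTgtgatTgtgTcc
Serpina3f, chr12:104218259-104218288 (+): TTggATGagaATaggTcTgtgaAGgtgccc
Serpina3h, chr12:104251525-104251554 (+): TTggATGagaAgaggTcTgtgaATgtgTcc
Serpina3c, chr12:104149564-104149593 (-): TTggATGTgaAgaggTcTgtgaAGgtgccc
Many of the capitals recur across the other 6 members. At the opposite end, the window over coding bases 607 to 636 of Serpina3n, in exon 2, was identical between Serpina3n and Serpina3i and held 1 or 2 differences in the other members.

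Promoter windows of 250 bases before to 50 bases after the RefSeq start (GRCm38.p6) were matched for 5 members, Serpina3c, Serpina3f, Serpina3g, Serpina3i and Serpina3n. Only the 250 bases before the start were searched for letters bound by factors of the inflammatory response, in the members and in all promoters. The STAT motif TTCNNNGAA reads as a match on both strands at once and was present in the windows of Serpina3f, Serpina3g and Serpina3i, as in 7.0% of 32851 promoters. An NF-kB decamer was found on the given strand in Serpina3g and Serpina3i, and in 7.3% of promoters on either strand. The ISRE-like motif of interferon responses (GAAA, any 2 bases, then GAAA, on either strand) was in the searched bases of 0 of the 5 members and of 3.0% of promoters. The STAT motif falls in a stretch that aligns across the 5 members, shown here because it sets Serpina3i apart from Serpina3n, with the 9 bases at the motif's place in capitals.
Serpina3i, chr12:104263014-104263041 (+): tgcttgTTCCCAGAAatcacccagtctg
Serpina3g, chr12:104236108-104236135 (+): ttatagTTCCCAGAAatcacccggtctg
Serpina3f, chr12:104214417-104214444 (+): ttctatTTCCTAGAAatcacccatttcc
Serpina3n, chr12:104406579-104406606 (+): tccatgTTACCAGAAatcatccagtctg
Serpina3c, chr12:104153971-104153998 (-): tccataTTACCAGAAatcatccagtctg
In Serpina3n and Serpina3c the 9 bases do not match the motif, which says only that these letters are absent from the 250 bases searched.

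The libraries held 19549622 to 21066868 counts each. Levels are given as CPM, counts scaled to a TMM-scaled library of 1000000. As a check of the transgene labels, Thy1, the gene that lends its promoter, ranged over 685 to 769 CPM without the transgene and 1905 to 3318 CPM with it. The microRNA itself was not analysed here. Markers of astrocytes, oligodendrocytes, microglia, neurons and endothelium were all detected. Summed choroid plexus markers (14 genes) ranged from 64.6 to 4410 CPM between mice, with group medians of 136 CPM (KO Non-Tg), 1948 CPM (WT Non-Tg), 3284 CPM (KO Tg-SwDI) and 3510 CPM (WT Tg-SwDI).

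Serpina3n was by far the most abundant member. Per exonic length it reached 25.5 ± 1.04 CPM per kb (SD, n = 5) in WT Non-Tg mice and 24.5 ± 1.14 in KO Non-Tg mice. With the transgene the level was 70.2 ± 4.53 CPM per kb in WT mice and 117 ± 32.0 in KO mice. Serpina3g was second in every group, at 0.648 to 0.917 CPM per kb on average, and none of its mice overlapped with Serpina3n. Below Serpina3g, the means of Serpina3c, Serpina3h, Serpina3i, Serpina3f and Serpina3m were at most 0.148 CPM per kb in Non-Tg mice, and most neighbours in that order overlapped between mice. Serpina3i was the third with the transgene, at 0.180 ± 0.0623 CPM per kb in WT mice and 0.488 ± 0.134 in KO mice, and the fifth in both Non-Tg groups. Its KO Tg-SwDI mice overlapped with those of Serpina3g. Of the raw counts over the 7 members, Serpina3n held 94.9% to 97.3% in the Non-Tg mice and 97.7% to 98.8% in the Tg-SwDI mice.

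Of the 7 members, 3 passed the filter on low counts and entered the test: Serpina3n, Serpina3g and Serpina3i. Serpina3i passed only through the KO Tg-SwDI group, where it is high, so it had to differ, and counts over the members that passed are not evidence about the cluster. Serpina3m, Serpina3f, Serpina3h and Serpina3c stayed below the filter and are given as raw counts and from the fit without it.

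Serpina3n rose with the transgene in both miR-34a genotypes. In WT Non-Tg mice it lay at 50.9, 51.5, 51.5, 52.7 and 56.2 CPM, and in KO Non-Tg mice at 46.8, 49.7, 51.4, 51.9 and 52.7 CPM. In WT Tg-SwDI mice the values were 135, 139, 141, 151 and 158 CPM. In KO Tg-SwDI mice they were 163, 204, 250, 254 and 340 CPM. The Non-Tg groups overlapped in part. Every Tg-SwDI mouse was above every Non-Tg mouse, and the lowest KO Tg-SwDI mouse was above the highest WT Tg-SwDI mouse.

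Averaged over the miR-34a genotypes, the Tg-SwDI effect on Serpina3n was a log2 fold change of 1.86 (standard error 0.09, edgeR adjusted p = 1.01e-11). In that contrast 17.2% of the genes tested were called, 11.3% as higher, and in 2.99% every Tg-SwDI mouse was above every Non-Tg mouse. Among WT mice alone the log2 fold change was 1.46 (standard error 0.13, edgeR adjusted p = 2.18e-07), where 4.41% of genes were called, 3.94% as higher, and 5.1% did not overlap upwards. Among KO mice alone it was 2.26 (standard error 0.13, edgeR adjusted p = 1.96e-10), where 20.8% of genes were called, 12.5% as higher, and 8.47% did not overlap upwards. KO and WT Non-Tg mice did not differ by the test (log2 fold change -0.06, standard error 0.13, edgeR adjusted p = 0.970). In that contrast 0% of genes were called by edgeR's quasi-likelihood test, 1302 had an unadjusted p under 0.05, and DESeq2 called 7 and exactTest 4.

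Between KO and WT Tg-SwDI mice, the comparison that Serpina3i was picked from, Serpina3n differed by a log2 fold change of 0.74 (standard error 0.12), given with no test. Its rank from the highest was 158 among 16107 genes. For orientation, 1.99% of genes were called in this contrast, 1.48% as higher, and 2.04% had every KO mouse above every WT mouse. The difference between the transgene effects in KO and in WT mice was 0.80 on the log2 scale (standard error 0.18), also with no test, and 0.608% of genes were called in that interaction. The spread was larger in KO Tg-SwDI mice, with an SD of 66.0 CPM around a mean of 242, against 9.34 around 145 in WT Tg-SwDI mice. KO Tg-SwDI replicate 3 was the highest and replicate 5 the lowest of its group. Without replicate 3 the log2 fold change was 0.59 (standard error 0.09) and without replicate 5 it was 0.86 (standard error 0.09).

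Serpina3i was nearly silent without the transgene. WT Non-Tg mice had 0, 1, 1, 1 and 2 counts and KO Non-Tg mice had 0, 0, 0, 1 and 3. WT Tg-SwDI mice had 5, 7, 7, 11 and 12 counts. KO Tg-SwDI mice had 14, 15, 25, 25 and 29 counts. Each WT Tg-SwDI mouse was above each Non-Tg mouse, and each KO Tg-SwDI mouse was above each WT Tg-SwDI mouse. These separations are descriptions, because Serpina3i was picked and passed the filter through the KO Tg-SwDI mice. Of all genes tested, 5.1% had every WT Tg-SwDI mouse above every WT Non-Tg mouse. In 2.04% every KO Tg-SwDI mouse was above every WT Tg-SwDI mouse.

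On the CPM scale Serpina3i averaged 0.0488 ± 0.0351 (SD, n = 5) in WT Non-Tg and 0.0384 ± 0.0625 in KO Non-Tg mice, and with the transgene 0.401 ± 0.139 in WT and 1.09 ± 0.298 in KO mice. Its averaged Tg-SwDI effect was a log2 fold change of 3.77 (standard error 0.38), given with no test because it rests on the KO Tg-SwDI mice through which the gene was picked and passed the filter. With so few counts below, the size of the fold is loosely held. Summed over mice and scaled by library size, 42 counts in WT Tg-SwDI against 5 in WT Non-Tg mice gave a ratio of 8.33 (95% counting interval 3.30 to 27.0). In KO mice 108 counts against 4 gave a ratio of 28.5 (95% counting interval 10.8 to 107). Both intervals treat counts and not mice as the units, so they cover counting error only and are no test of Serpina3i. The fitted log2 fold changes of the same contrasts were 2.91 (standard error 0.56) and 4.62 (standard error 0.49), with no test for Serpina3i. Without KO Non-Tg replicate 7, which held 3 of the 4 counts of its group, the value in KO mice was 5.92.

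KO and WT Non-Tg mice could not be told apart in Serpina3i (log2 fold change -0.29, standard error 0.89, edgeR adjusted p = 0.977), and a difference of that size was not detectable at this depth. Between KO and WT Tg-SwDI mice the log2 fold change was 1.43 (standard error 0.32), the 15th highest of 16107 genes, and the ratio of summed counts was 2.72. This is the value that picked the gene. It lay between 1.30 and 1.58 when 1 mouse at a time was left out, and was 1.32 without KO Tg-SwDI replicate 3. The difference between the transgene effects was 1.72 on the log2 scale with a standard error of 1.04, and 3.02 without KO Non-Tg replicate 7.

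**Figure D2:**
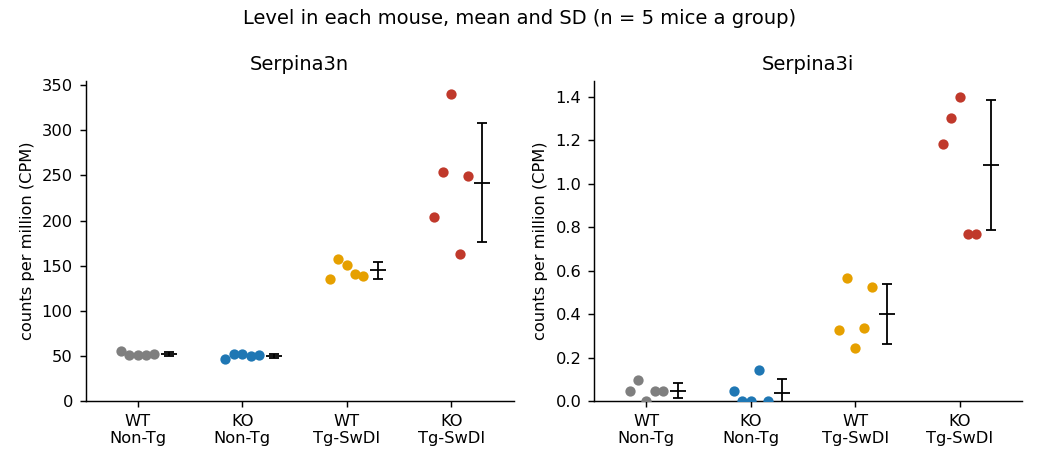
Serpina3n (left) and Serpina3i (right) in CPM on linear axes from 0, with 1 point per mouse and bars for the mean and SD of 5 mice. The Non-Tg groups overlap, and in both genes the KO Tg-SwDI mice lie above the WT Tg-SwDI mice, from 163 to 340 CPM for Serpina3n. That separation is a description, and 2.04% of all genes tested had it.

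Serpina3g behaved differently from Serpina3n. WT Non-Tg mice had 30, 37, 39, 45 and 49 counts and KO Non-Tg mice had 18, 25, 26, 30 and 43. WT Tg-SwDI mice had 25, 33, 34, 36 and 36 counts, and KO Tg-SwDI mice had 25, 27, 32, 41 and 55. All 4 groups overlapped. The averaged Tg-SwDI effect was a log2 fold change of 0.06 (standard error 0.15, edgeR adjusted p = 0.837), whose sign turned without KO Tg-SwDI replicate 3 (-0.03), without KO Non-Tg replicate 1 (-0.0040) and with a choroid plexus covariate (-0.03). The other tested contrasts of Serpina3g did not pass either, at -0.30 (standard error 0.21, edgeR adjusted p = 0.564) for the transgene in WT mice and 0.41 (standard error 0.22, edgeR adjusted p = 0.185) in KO mice. For KO against WT Non-Tg mice the log2 fold change was -0.50 (standard error 0.22), with an unadjusted edgeR p of 0.0283 and an adjusted p of 0.574. KO and WT Tg-SwDI mice differed by 0.21 (standard error 0.21), with no test. The difference between the transgene effects in KO and in WT mice was 0.71 on the log2 scale (standard error 0.30), also with no test.

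The remaining members were at the limit of detection. Serpina3h, the pseudogene, had 0 to 3 counts in WT Non-Tg mice (7 in sum) and 1 to 6 in KO Non-Tg mice (22). With the transgene it had 1 to 6 in WT mice (20) and 3 to 11 in KO mice (28). In the fit without the filter its log2 fold change between KO and WT Non-Tg mice was 1.56 (standard error 0.61, edgeR adjusted p = 0.736), and the averaged Tg-SwDI effect was 0.92 (standard error 0.39, edgeR adjusted p = 0.164). Serpina3c, which encodes a kallikrein-binding serpin, had 2 to 11 counts in every mouse, with sums of 27, 16, 20 and 28 in the same order of groups. Its averaged Tg-SwDI log2 fold change was 0.21 (standard error 0.33, edgeR adjusted p = 0.874). In raw counts both genes overlapped between all groups, but Serpina3h in WT Non-Tg and KO Tg-SwDI mice only by a tie at 3 counts.

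Serpina3f summed to 2 and 3 counts in WT and KO mice without the transgene, and to 10 counts in each genotype with it. Of the 10 counts in WT Tg-SwDI mice, 7 came from replicate 7, whereas each KO Tg-SwDI mouse had 1 to 3. The averaged Tg-SwDI log2 fold change without the filter was 1.82 (standard error 0.68, edgeR adjusted p = 0.0931). Serpina3m had 0 counts in all 5 WT Non-Tg mice, which allows up to 0.0290 CPM over the group. It had 1 count in KO Non-Tg mice, and with the transgene 2 in WT and 9 in KO mice, of which 5 were in KO replicate 3. Its averaged log2 fold change without the filter was 2.34 (standard error 0.93, edgeR adjusted p = 0.121), a value that depends on the prior count. KO Tg-SwDI replicate 3, the mouse with the highest Serpina3n, also had the highest raw count of Serpina3i, Serpina3g, Serpina3h, Serpina3c and Serpina3m in its group. Serpina3f went the other way, as its 1 count in this mouse was tied with replicate 8 for the lowest of the group.

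**Figure D3:**
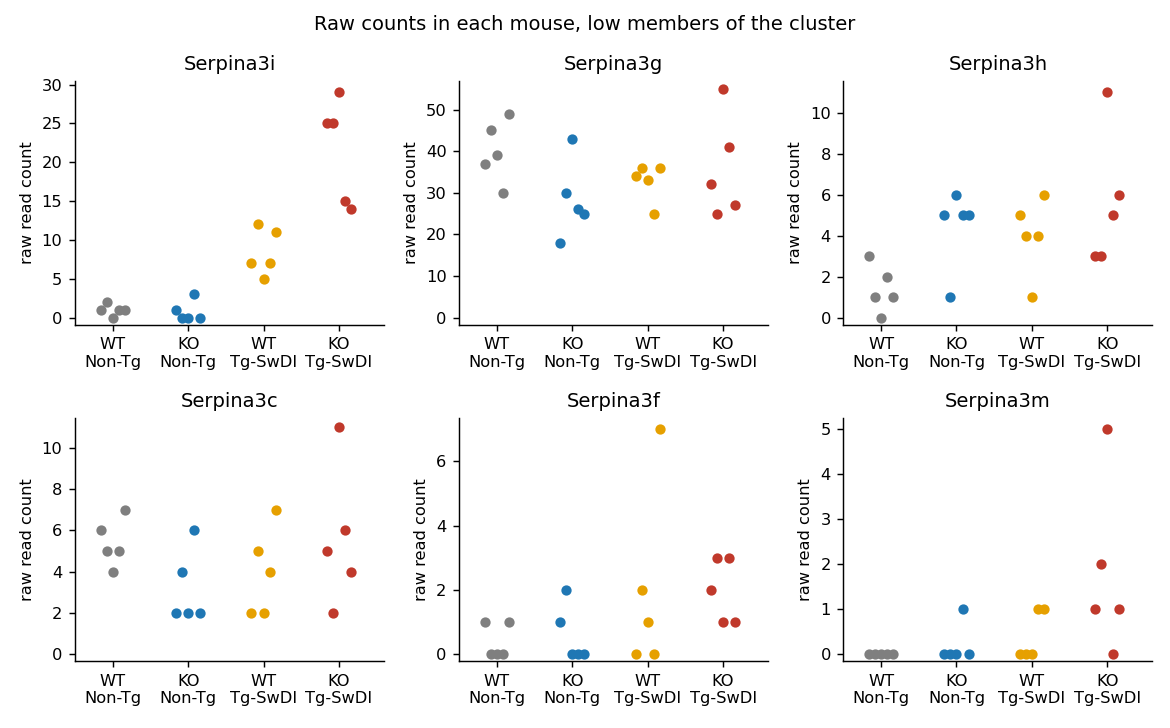
Raw read counts of the 6 members other than Serpina3n, 1 point per mouse, with a linear axis per gene. Serpina3i separates into Non-Tg (0 to 3 counts), WT Tg-SwDI (5 to 12) and KO Tg-SwDI mice (14 to 29), a description of the gene that was picked. The groups overlap in Serpina3g, Serpina3h, Serpina3c, Serpina3f and Serpina3m.

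**Figure D4:**
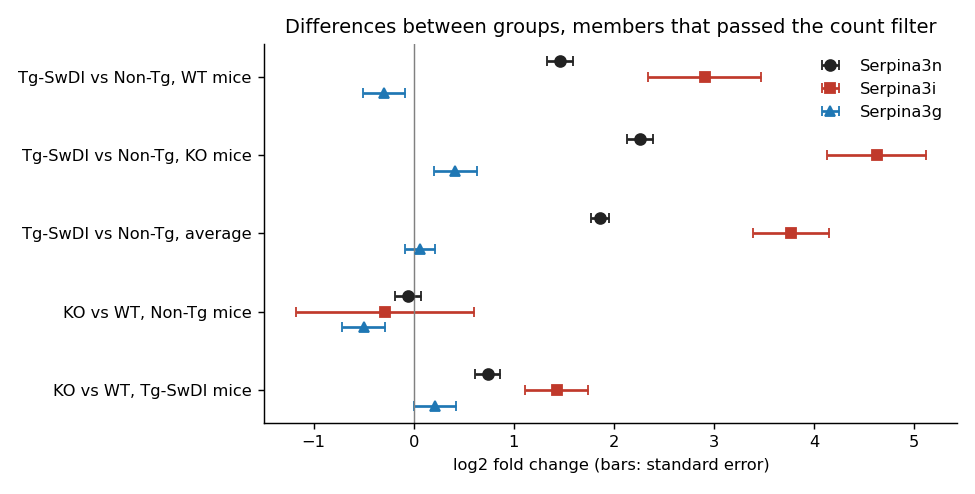
Log2 fold changes of Serpina3n, Serpina3i and Serpina3g in 5 contrasts of the same edgeR fit, with standard errors as bars and a line at 0. Serpina3n and Serpina3i lie above 0 in the 3 transgene contrasts, Serpina3g lies between -0.30 and 0.41 there, and the KO against WT Tg-SwDI values and the 3 transgene contrasts of Serpina3i are descriptions.

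Other Serpina genes were as low as the minor members. The table held 22 of them, of which 8 had no count and 7 had 1 to 9 counts over the 20 mice. The other 7 (Serpina10, Serpina12, Serpina9, Serpina1d, Serpina1b, Serpina1a and the pseudogene Serpina3e-ps) had at most 11 counts in any mouse. Serpina9 summed to 10 counts in each of the first 3 groups and 31 in KO Tg-SwDI mice. Summed liver markers such as Alb, where these genes are abundant, stayed between 0.480 and 1.54 CPM in all mice.

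The genes most like Serpina3n across the 20 mice were Gfap, the filament protein of reactive astrocytes, with r = 0.99, C1qc, a complement chain made by microglia, with r = 0.98, and Plxdc2, with r = 0.98 (Pearson r of log2 CPM). These values are descriptions, because the mice fall into clusters by transgene and most of the likeness is between groups. Taken as deviations from the group means, r was 0.88 for Gfap, 0.51 for C1qc and 0.38 for Plxdc2. Gfap ranged from 1227 CPM in KO Tg-SwDI replicate 5 to 2252 CPM in replicate 3, the same mice that bounded Serpina3n. For Serpina3i the most alike genes were Treml2 (r = 0.96), Siglech (r = 0.95) and Ikzf1 (r = 0.95), which are known from microglia and other blood-lineage cells. Their r within groups was 0.67, 0.38 and 0.52.

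**Figure D5:**
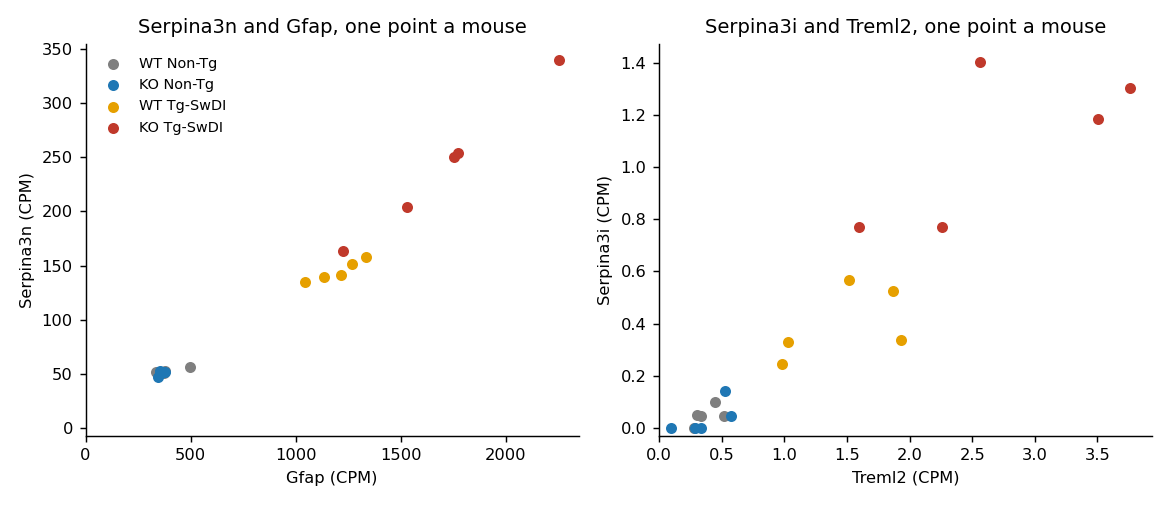
Left, Serpina3n against Gfap; right, Serpina3i against Treml2, both in CPM with 1 point per mouse, coloured by group. Non-Tg mice sit together at the lower left, and KO Tg-SwDI replicate 3 is the point at 340 CPM of Serpina3n and 2252 CPM of Gfap.

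Cell markers moved with the transgene beside Serpina3n and Serpina3i. In bulk tissue, more cells of a type and more RNA per cell cannot be told apart. Of the astrocyte markers 7 of 7 were called higher in the averaged Tg-SwDI contrast, with summed levels of 4494 to 5045 CPM in Non-Tg and 5113 to 6173 CPM in Tg-SwDI mice. Of the microglia markers 7 of 7 were called higher, with sums of 319 to 405 CPM in Non-Tg mice, and 636 to 753 CPM (WT) and 747 to 1038 CPM (KO) with the transgene. Of the oligodendrocyte markers 5 of 7 were higher, of the endothelial markers 1 of 6, and of the neuronal markers 2 of 8 were lower. Over all genes tested, 11.3% were called higher in the averaged contrast and 17.2% in either direction. Choroid plexus markers were called higher for 1 of 14 in the averaged contrast and for 12 of 14 among KO mice alone, the contrast in which Serpina3n had its larger value of 2.26. Among KO mice alone, 12.5% of all genes tested were called higher. Of the blood markers 0 of 3 tested and of the liver markers 0 of 1 tested were called, with blood sums of 1.30 to 21.3 CPM. Among Tg-SwDI mice Thy1 was also higher in the KO genotype (log2 fold change 0.37, standard error 0.06, edgeR adjusted p = 0.00416). The part of these shifts in the levels of the members was not tested. In a fit with the choroid plexus score added, the averaged Tg-SwDI log2 fold change was 1.85 for Serpina3n and 4.003 for Serpina3i. Among KO mice alone, the value of Serpina3n lay between 2.11 and 2.38 over all alternative fits, the one with this score among them.

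Gene lists around Serpina3n were read the same way. Of all genes tested, 11.3% were called higher in the averaged Tg-SwDI contrast and 1.48% between KO and WT Tg-SwDI mice. Among 27 reactive astrocyte genes, all tested, 19 were called higher and 0 lower in the averaged Tg-SwDI contrast, with a median log2 fold change of 0.95 against -0.0076 over all genes. The largest were Lcn2 at 2.29, Gfap at 1.94 and Aspg at 1.87 on the log2 scale (edgeR adjusted p = 1.15e-05, 1.94e-12 and 7.95e-11), beside 1.86 for Serpina3n. Between KO and WT Tg-SwDI mice 5 of the 27 were called higher and 0 lower, led by Psmb8 at 0.72, Cd44 at 0.59 and S1pr3 at 0.52 (edgeR adjusted p = 0.0401, 0.00654 and 0.0168). Psmb8 lost its call without any 1 of 9 mice (edgeR adjusted p up to 0.0955) and S1pr3 without WT Tg-SwDI replicate 7 (0.0594), and both with the compared groups alone (0.0939 and 0.0734). Among 10 genes of disease-associated oligodendrocytes, 8 were higher and 0 lower with the transgene, led by the complement gene C4b at 1.78, the protease Klk6 at 1.49 and the class I light chain B2m at 1.45 (edgeR adjusted p = 1.46e-09, 3.75e-09 and 2.02e-09), and 1, B2m, was higher between KO and WT Tg-SwDI mice (0.76, edgeR adjusted p = 0.0106).

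Of 15 proteases, among them targets of this serpin family, 8 were expressed enough to test and 5 of these were higher with the transgene. They were led by cathepsin S (Ctss) at 1.80, Klk6 at 1.49 and cathepsin L (Ctsl) at 1.11 on the log2 scale (edgeR adjusted p = 9.04e-11, 3.75e-09 and 1.49e-14). Cathepsin G (Ctsg) and granzyme B (Gzmb), the Serpina3n targets named above, were among the 7 proteases not tested. Over all genes tested, 11.3% were called higher in the averaged Tg-SwDI contrast and 1.48% between KO and WT Tg-SwDI mice. Cathepsin B (Ctsb) was the 1 protease called between KO and WT Tg-SwDI mice (0.29, edgeR adjusted p = 0.00182). Of 21 genes of the cytokine, STAT and NF-kB signalling that induces acute phase genes, 18 were tested and 13 were higher with the transgene. The oncostatin M receptor Osmr (1.39), the TNF receptor Tnfrsf1a (0.94) and the STAT feedback inhibitor Socs3 (0.89) led them (edgeR adjusted p = 2.28e-11, 4.5e-08 and 3.94e-07), and the NF-kB subunit gene Rela was the 1 called between KO and WT Tg-SwDI mice (0.37, edgeR adjusted p = 0.0144, and 0.0796 with the compared groups alone).

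Serpins outside the cluster were read as a further list. Of 17, 14 were tested, and 5 were higher and 1 lower in the averaged Tg-SwDI contrast, with a median log2 fold change of 0.14. Over all genes tested, 17.2% were called in that contrast and 1.99% between KO and WT Tg-SwDI mice. Serpinf2, the plasmin inhibitor, rose by 2.79 (edgeR adjusted p = 1.17e-10), and Serping1, the C1 inhibitor, rose by 0.56 (edgeR adjusted p = 0.0482). Serping1 lost its call without any 1 of 15 mice (edgeR adjusted p 0.0581 to 0.0880). Between KO and WT Tg-SwDI mice Serpinf2 (0.86, edgeR adjusted p = 0.0468) and the thrombin inhibitor Serpine2 (0.20, edgeR adjusted p = 0.0332) were higher and Serpini1, the neuronal neuroserpin, was lower (-0.33, edgeR adjusted p = 0.0289). These calls were lost without any 1 of 13, 5 and 3 mice, with edgeR adjusted p up to 0.115, 0.0926 and 0.0897, and with the compared groups alone (0.153, 0.123 and 0.0889).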

How the data were processed

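Poly(A)-selected, stranded RNA libraries of 20 left hippocampi, 1 per mouse, were analysed in 4 groups of 5 taken from the labels. STAR alignment to mm10 and featureCounts over ENSEMBL genes were run by the authors, and the deposited values are raw read counts without normalization. Versions, the strand setting and how reads with several matches were handled are not given in the sources used here. Of the 39056 genes, 38872 were matched to GENCODE M21 (mm10) by ID for symbols, positions and exonic lengths. Promoter windows were taken from RefSeq (GRCm38.p6), and coding sequences were aligned with Biopython 1.88 in Python 3.11.15.

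Library sizes were scaled by TMM. The filterByExpr function, given the groups, removed low genes (count of 10, total of 15), and the 4 group means were fitted in 1 robust quasi-likelihood model by edgeR 4.0.16 (R 4.3.3, limma 3.58.1), with 16 residual degrees of freedom. P-values were adjusted by the Benjamini-Hochberg method over the 16107 genes tested, at an FDR of 0.05. In the fit without the filter, used for Serpina3m, Serpina3f, Serpina3h and Serpina3c, they were adjusted over 28691 genes. Levels are counts scaled to 1000000 per TMM-scaled library (CPM), and CPM per kb divides them by the exonic length. Totals of 19549622 to 21066868 counts per mouse set the precision at low counts. Intervals of count ratios are exact binomial intervals (95%, scipy 1.17.1) and cover counting error only, as does the floor of 3 counts.

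The members and the gene lists were chosen with earlier results of these data known. Since Serpina3i was picked from KO against WT Tg-SwDI mice, no member was tested in that contrast or in the interaction, and no p is given for Serpina3i in the transgene contrasts that share those mice. Genes named beside the members were the other Serpina genes with at least 10 counts over the 20 mice, up to 3 called genes of each list with the largest change in the averaged Tg-SwDI contrast and in KO against WT Tg-SwDI mice, the 3 genes most like Serpina3n and Serpina3i by Pearson r of log2 CPM (prior count 2), and Thy1. A result that this rule names is not reported here. Alternatives were DESeq2 1.42.0, edgeR's exactTest, RLE factors, no filter, a filter at a mean CPM of 1, the compared groups alone, library size alone, the replicate number as a block, a choroid plexus score as a covariate and each mouse left out. The fitting code was tested on simulated counts.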

Additional observations from a re-analysis of the deposited data

Results flagged for a closer look

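The level of each member, and of Gfap, Treml2 and Thy1, was checked in the groups of 5 mice. A mouse was flagged when its gap to its nearest neighbour took more than 0.71 of the group's range (Dixon's limit). Chance gives this in about 1 in 20 groups of continuous, normally spread values. That rate does not hold for groups of a few counts, such as those of Serpina3m, Serpina3f and Serpina3h. Of 39 groups with any spread, 6 held such a mouse. Serpina3g was lowest in WT Tg-SwDI replicate 6, at 1.21 CPM. Serpina3f was highest in WT Tg-SwDI replicate 7, at 0.335 CPM from 7 counts. Serpina3h was lowest in KO Non-Tg replicate 2, at 0.0474 CPM from 1 count. The single Serpina3m count of the KO Non-Tg mice put replicate 7 apart at 0.0480 CPM, which any single count among zeros would do. Gfap was highest in WT Non-Tg replicate 2, at 497 CPM, and in KO Non-Tg replicate 2, at 379 CPM. No value of Serpina3n or Serpina3i stood apart in this way.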

How the results depend on the processing

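In the averaged Tg-SwDI contrast, where 17.2% of all genes tested were called, Serpina3n was past the threshold and Serpina3g was not. Serpina3i is given with no test there, because it entered only through the group where it is high, and the stricter filter removes it. A count of members past the threshold would therefore say nothing about the cluster. Serpina3n kept its direction under all alternatives, with averaged Tg-SwDI log2 fold changes between 1.79 and 1.93 and edgeR or DESeq2 adjusted p of at most 4.34e-08. Values near 0 changed sign in 4 cases. The averaged Tg-SwDI log2 fold change of Serpina3g was -0.029 with the choroid plexus covariate, -0.0040 without KO Non-Tg replicate 1 and -0.032 without KO Tg-SwDI replicate 3 (-0.032 to 0.159 without 1 mouse), and that of Serpina3i for KO against WT Non-Tg mice was 0.081 without WT Non-Tg replicate 3 (-1.589 to 0.081 without 1 mouse). The cause was not tested.

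The count of all genes called moved with the processing. For KO against WT Tg-SwDI mice it was 320, and 733 by DESeq2, 565 by exactTest, 579 with the choroid plexus covariate, 58 in the compared groups alone and 78 to 701 without 1 mouse. With the covariate it was 1401 in place of 2766 for the averaged Tg-SwDI effect and 1264 in place of 3351 in KO mice. For KO against WT Non-Tg mice it was 0, and 7 by DESeq2, 4 by exactTest, 1 with no filter, 1 in the compared groups alone and 0 to 3 without 1 mouse. For the interaction it was 98, and 482 by DESeq2, 59 with library size alone, 34 with the covariate and 14 to 500 without 1 mouse. Library size alone put 47.0% of the calls for KO against WT Tg-SwDI mice on the higher side, against 74.7% with TMM, and 48.3% against 60.1% for Tg-SwDI against Non-Tg KO mice.

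The labels do not say whether the replicate numbers pair the mice. Of 16 pairs of mice with the same number in different groups, 2 had correlated deviations from their group means above 0.1 (range -0.40 to 0.15). Whether mice with the same number shared a litter or a batch was not tested. A block by this number takes up part of the 16 residual degrees of freedom. With the number as a replicate block, 8 genes were called for KO against WT Tg-SwDI mice and 38 for the interaction. All 9 list genes named as called for KO against WT Tg-SwDI mice lost their call with it (edgeR adjusted p 0.0781 to 0.360), among them B2m (0.191), Cd44 (0.178), Ctsb (0.0781) and Rela (0.295), as did Serping1 in the averaged Tg-SwDI contrast (0.161). With the block the averaged Tg-SwDI log2 fold change was 1.90 for Serpina3n, which kept its call, and 3.995 for Serpina3i. Serpina3f, Serpina3h, Serpina3c and Serpina3m, with at most 11 counts in a mouse, were limited by depth.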
